A study of Mus musculus with 10 samples.

Results

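The respiratory chain subunit genes are described here as a set of 96 mouse genes, out of 21887 protein-coding genes in the annotation used. They were chosen by symbol alone: autosomal protein-coding genes whose symbols start with Nduf, Uqc, Atp5 or Cox followed by 4, 5, 6, 7 or 8, together with Sdha, Sdhb, Sdhc and Sdhd. The rule uses symbols and no measured value, though it was written with earlier results of these data known. By symbol, 47 belong to complex I, 4 to complex II, 11 to complex III, 17 to complex IV and 17 to complex V, and the symbols take in assembly factors as well as subunits. Regions were assigned to a gene when they lay within 5 kb of either of its ends in mm10.

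The study used CUT&RUN, in which an antibody directs a nuclease to cut out the DNA around its target, to map IKZF2, also called Helios, a DNA-binding zinc finger protein related to Ikaros. All samples were RN2 cells, a C57BL/6 mouse leukaemia line carrying MLL-AF9 and NRASG12D. All of them had also been transduced by retrovirus with murine IKZF2 and an RFP reporter, sorted and cultured for 2 weeks, so the antibody met an overexpressed protein. The anti-IKZF2 antibody was used on 6 samples, which are 3 libraries with 2 technical replicates each, and a control rabbit antibody on 4 samples from 2 libraries. The control antibody samples are not analysed here, so every value below is a read density and not an enrichment over a control. Separate cultures for the libraries are not stated in the labels, so SDs measure only the spread between these libraries, which may be technical. The p-values below take their error from how the difference between technical replicates varied among these libraries, so they do not measure biological spread.

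The respiratory chain passes electrons from NADH through complex I, or from succinate through complex II, to ubiquinone, on to complex III and cytochrome c, and finally to oxygen at complex IV. The protons pumped on the way drive complex V, the ATP synthase. Most subunits are encoded in the nucleus and a few in the mitochondrial genome, and the nuclear genes tend to be expressed in step. Their promoters are known for sites of NRF1, of the ETS factor GABP, of YY1 and of the nuclear receptor ESRRA. Leukaemic stem cells are known to lean on oxidative phosphorylation.

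A region at the promoter was found for most of the respiratory chain genes that had an annotated promoter. Of the 96 genes, 78 matched an entry in the RefSeq promoter table of GRCm38.p6, which covers 250 bases before to 50 after an annotated start site. A region overlapped that window for 48 of the 78 genes (61.5%), and for 26.9% of the 17492 genes with an entry. Over autosomal genes alone the share was 28.15%. Complex III had the highest share, with 6 of 8 genes, followed by complex I with 27 of 40, complex II with 2 of 3, complex V with 8 of 15 and complex IV with 5 of 12. Sets of other housekeeping genes were also above the share of all genes: 25 of 42 proteasome genes (Psm symbols, 59.52%) and 32 of 69 mitochondrial ribosomal protein genes (Mrpl and Mrps symbols, 46.38%).

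The DNA under these regions is shown for the gene of each complex that had the highest promoter signal among those whose upstream stretch touched no annotated gene span. Each line gives the part of the region that lies upstream of the start site, within the promoter window, 5′ to 3′ along the gene. Capitals mark a match to one of 6 short motifs, which are spelled out with their shares further on.

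Ndufv1: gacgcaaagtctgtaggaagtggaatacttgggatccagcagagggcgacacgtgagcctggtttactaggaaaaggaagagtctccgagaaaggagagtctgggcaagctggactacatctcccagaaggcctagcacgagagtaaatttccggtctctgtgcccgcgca
Sdhb: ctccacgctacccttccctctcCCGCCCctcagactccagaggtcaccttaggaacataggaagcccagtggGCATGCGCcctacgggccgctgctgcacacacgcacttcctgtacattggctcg
Uqcrh: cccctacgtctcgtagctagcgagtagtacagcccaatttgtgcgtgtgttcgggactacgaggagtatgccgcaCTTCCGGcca
Cox7a1: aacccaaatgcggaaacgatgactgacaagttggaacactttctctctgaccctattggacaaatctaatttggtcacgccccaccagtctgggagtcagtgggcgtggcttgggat
Atp5o: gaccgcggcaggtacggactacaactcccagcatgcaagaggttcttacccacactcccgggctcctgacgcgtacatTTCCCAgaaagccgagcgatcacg

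The Ndufv1 stretch (mm10, chr19:4012803-4012973, minus strand) and the Cox7a1 stretch (chr7:30184043-30184159, plus strand) held none of the motifs. The Sdhb stretch (chr4:140961145-140961270, plus strand) held an NRF1 match and an SP1 match. The Uqcrh stretch (chr4:116075071-116075155, minus strand) held an ETS match close to the start site. The Atp5o stretch (chr16:91931631-91931732, minus strand) held the Ikaros core. A further 3 are shown because they hold an Ikaros, an ETS and an ESRRA match, and they were chosen after their values were seen.

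Ndufa9: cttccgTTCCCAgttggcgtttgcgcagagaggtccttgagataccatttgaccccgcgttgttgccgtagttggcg
Uqcr11: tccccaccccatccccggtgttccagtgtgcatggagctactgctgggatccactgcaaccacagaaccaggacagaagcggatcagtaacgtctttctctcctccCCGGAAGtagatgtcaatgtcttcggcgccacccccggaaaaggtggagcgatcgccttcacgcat
Ndufb4: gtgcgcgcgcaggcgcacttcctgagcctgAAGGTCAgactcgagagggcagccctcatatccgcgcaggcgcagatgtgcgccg

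Ndufa9 (chr6:126849145-126849221) and Ndufb4 (chr16:37654369-37654453) encode accessory subunits of complex I, and Uqcr11 (chr10:80406822-80406993) encodes a small subunit of complex III. All 3 are on the minus strand. The region at Ndufa9 had a mean of 93.25 CPM per kb, the one at Uqcr11 91.53 and the one at Ndufb4 65.57. CPM per kb is the region's reads per 1000000 reads that the same library had in all regions, divided by the width of the region in kilobases, and means are over the 3 libraries.

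The promoter regions sat on the start site. Of the 48 regions, 36 spanned the annotated start, 11 lay wholly upstream and 1, at Atp5j, lay wholly downstream. Their median extent was from 119.5 bases upstream to 27 bases downstream, with a median width of 153.5 bases. The window itself limits how far from the start a region could be. The median signal of the 48 regions was 74.42 CPM per kb, against 71.49 for the 4708 genes of the whole annotation with a region in the window.

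**Figure D1:**
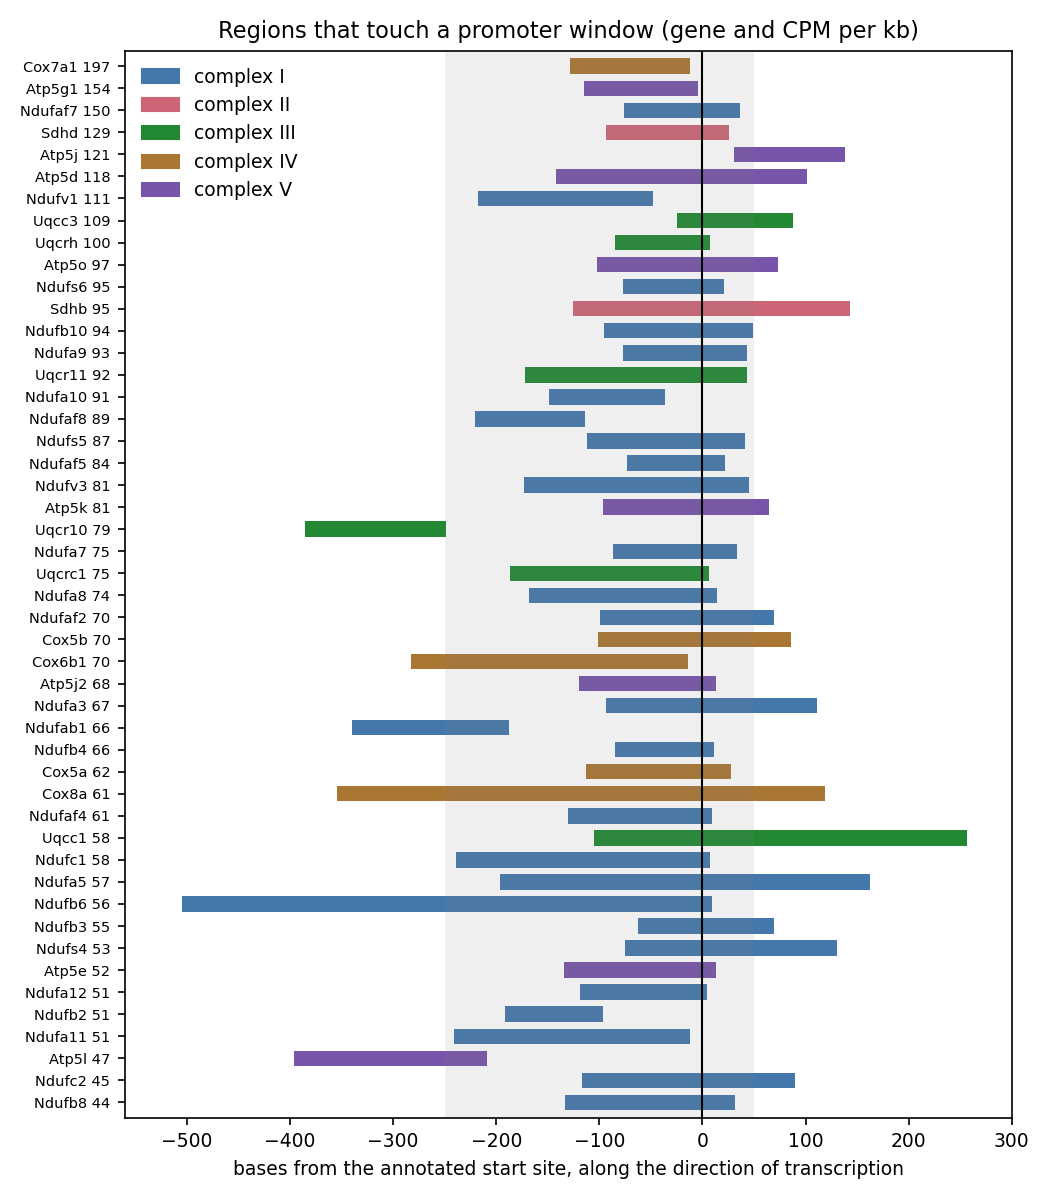
Position of the highest region that touches the promoter window, for 48 respiratory chain genes, in bases from the annotated start site along the direction of transcription; the grey band is the window, colours are complexes, and the number after each symbol is the mean CPM per kb of 3 libraries. Bars cross the start site for 36 of the 48 genes, and Cox7a1 has the highest value.

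Set beside all promoters with a region, those of respiratory chain genes held NRF1, YY1 and ESRRA matches in a larger share and the Ikaros core in a similar share. The letters searched on both strands were TGGGAA for the Ikaros core, CCGGAAG for ETS factors including GABP, GCATGCGC for NRF1, AAGATGGC for YY1, AAGGTCA for ESRRA and GGGCGG for SP1, and no motif lies within another. A gene counted once however many of its entries matched (83 entries for the 78 respiratory chain genes, 21263 for all). The Ikaros core, the sequence that IKZF2 itself is known to bind, was in 20.5% of the 78 promoters and in 27.4% of all. Among the 48 with a region it was in 29.2%, close to the 27.1% of all genes with a region in the window. Among the 30 respiratory chain promoters without a region it was in 2 (6.67%), against 27.6% of all genes without a region.

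NRF1 matches were in 18.8% of the 48 promoters with a region, against 6.99% of all genes with a region in the window. YY1 matches were also in 18.8% of the 48, against 6.18%. ESRRA matches were in 16.7%, against 3.97%. ETS matches were in 25%, beside 24.3% of all genes with a region in the window. SP1 matches were in 43.8%, against 71.2%. Among the 30 respiratory chain promoters without a region, ESRRA matches were in 3.33%, against 5.01% of all genes without a region. NRF1 and YY1 matches were each in 10% of the 30 (2.82% and 2.6% of all without a region). ETS matches were in 23.3% (8.75%) and SP1 matches in 53.3% (41.1%). Over the 78 promoters with an entry, NRF1 and YY1 matches were each in 15.4% (3.94% and 3.57% of all genes), ESRRA in 11.5% (4.73%), ETS in 24.4% (12.9%) and SP1 in 47.4% (49.2%). These shares describe letters in a window and no test was made of them. The median GC content of the promoter entries was 58.3% for the respiratory chain genes and 56.3% for all.

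**Figure D2:**
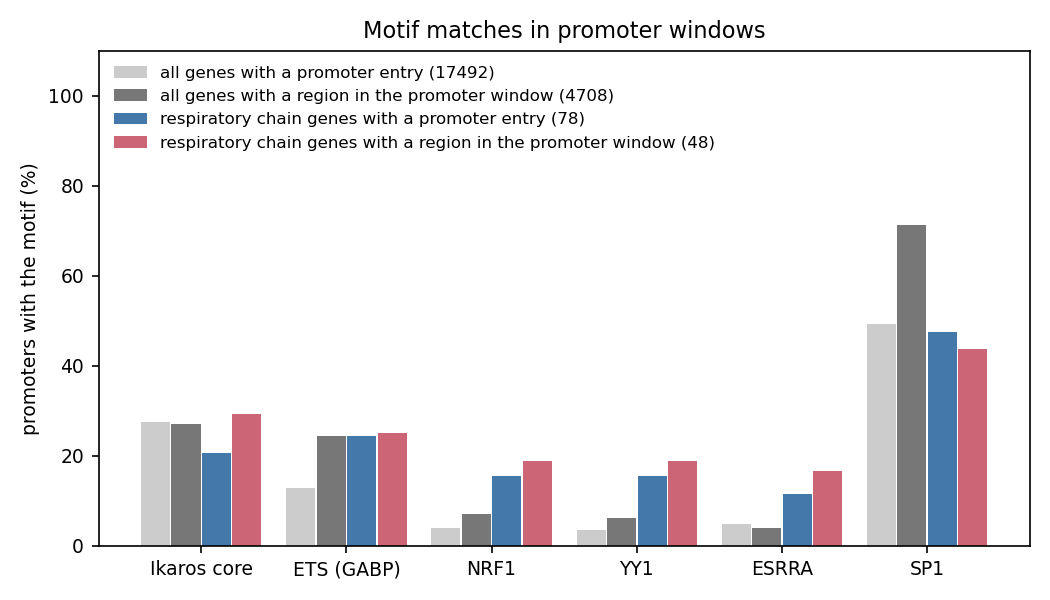
Share of promoters, in percent, that hold each motif on either strand: all genes with an entry, all genes with a region in the window, respiratory chain genes with an entry, and those of them with a region. NRF1, YY1 and ESRRA bars of the respiratory chain genes with a region stand at 16.7 to 18.8%, against 3.97 to 6.99% for all genes with a region, and their SP1 bar stands at 43.8 against 71.2%.

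In the wider window of 5 kb, 88 of the 96 genes (91.67%) had at least 1 region, against 73.7% of all genes and 77.43% of autosomal genes. The median number of regions per gene was 2, against 1 for all genes. A gene is described from here on by the highest region in that window, and its value may come from a region that also lies near another gene: 52 of the 88 (59.09%) shared it, against 36.96% of all genes with a region. The highest region overlapped the gene's start or end for 31 (35.23%, against 16.26%) and lay within 1 kb for 61 (69.32%, against 41.8%). Of the 75 genes with both a region and a promoter entry, 38 (50.67%) had the highest region in the promoter window, against 26.6% of all such genes.

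The signal was modestly above that of all genes by its median. The median of the 88 genes was 65.95 CPM per kb (quartiles 53.35 and 93.83), against 58.8 for all genes with a region (quartiles 50.57 and 75.52), and 56 of the 88 were above the latter. The top 10% of genes began at 101.8 CPM per kb. It held 18 of the 96 genes (18.75%), against 7.37% of all genes and 7.801% of autosomal genes. Ranked within each library, 18 were in the top 10% in library 1, 13 in library 2 and 18 in library 3. In all 3 libraries the count was 6 (6.25%), against 1.38% of all genes. Where the highest region was in the promoter window, 7 of 38 genes (18.42%) were in the top 10% by mean, against 22.4% of all such genes. Their medians were 80.1 and 78.53 CPM per kb. Where it was outside the window, 6 of 37 (16.22%) were in the top 10%, against 5.864%, with medians of 56.97 and 55.5. Genes without a promoter entry are in neither group. Mitochondrial ribosomal protein genes had 9 of 78 in the top 10% (11.54%) and proteasome genes 11 of 50 (22%). A count averages over the cells of a sample, so the share of cells with a signal and the signal per cell cannot be told apart.

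Without library 2 the top 10% held 24 of the 96 genes (25%), and without library 1 it held 16 (16.67%), each against 7.374% of all genes. With regions assigned within 1 kb it held 11 (11.46%), against 4.235% of all genes, since fewer genes had a region there. With the signal of all regions in the window summed it held 10 (10.42%), against 7.374%.

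**Figure D3:**
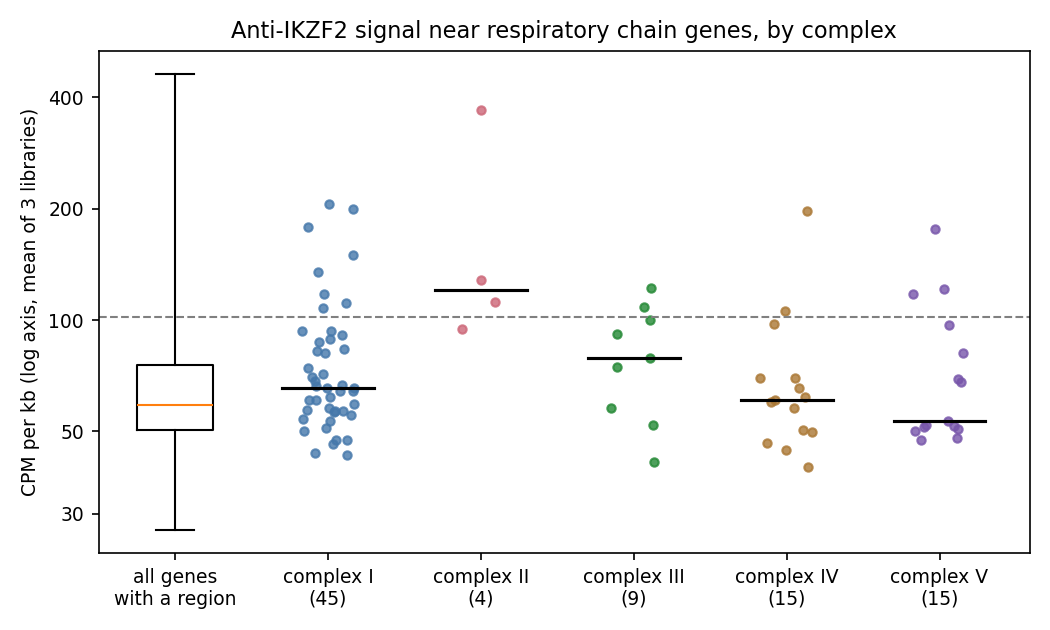
Mean CPM per kb of 3 libraries (log axis) of the highest region of each respiratory chain gene, by complex, with the number of genes in brackets and a bar at the median; the box at the left shows the median, quartiles and range of all genes with a region, and the dashed line the threshold of the top 10%. Complex II, with only 4 genes, has the highest median (120.4) and complex V the lowest (53.32).

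Complex I takes electrons from NADH. Of its 47 genes 45 had a region, with a median of 65.57 CPM per kb, and 8 were in the top 10%. The catalytic core, which carries the flavin and the iron-sulphur clusters, had 3 of 7 in the top 10%, among them Ndufs7 and Ndufv1. In none of the 7 did the highest region overlap a gene end. Ndufs7, the subunit that holds the last iron-sulphur cluster before ubiquinone, had 129.8, 228.4 and 240.2 CPM per kb in libraries 1 to 3 (199.5 ± 60.65, SD, n = 3). Its region (chr10:80261720-80261812) lay 4926 bases beyond the gene, near the edge of the window, and was shared with Gamt and Dazap1. Library 1 was the lowest, yet still above its own threshold of 110.8.

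Ndufv1, the subunit that binds NADH, had 129.2, 85.66 and 118.0 CPM per kb (110.9 ± 22.6, SD, n = 3). Its region, shown above, lay 47 bases from the gene end and was shared with no other gene. The other core subunits ranged down to 46.32 CPM per kb at Ndufv2.

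All 8 complex I assembly factors, which build the complex but do not stay in it, had the highest region within 1 kb of an end. Their median was 76.99 CPM per kb and 2 were in the top 10%. Ndufaf6 had 164.0, 293.9 and 158.4 CPM per kb (205.4 ± 76.69, SD, n = 3), with library 2 far above the others. Its region (chr4:11076193-11076284) was 91 bases wide, overlapped the gene end and was shared with no gene. Ndufaf7, a methyltransferase, had 190.2, 180.3 and 80.78 CPM per kb (150.4 ± 60.52, SD, n = 3). Its region spanned the start site, from 76 bases upstream to 36 downstream, and was shared with Cebpz; library 3 was below its threshold of 104.2.

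Among the 28 accessory subunits, which surround the core, 27 had a region, with a median of 65.57 CPM per kb, and 3 were in the top 10%. Ndufb6, a membrane arm subunit, had 155.5, 199.0 and 180.2 CPM per kb (178.2 ± 21.85, SD, n = 3), above the threshold in each library. Its region (chr4:40269828-40269924) lay 667 bases from the gene, 9497 bases past the annotated start, and near Topors and Smim27. Ndufs6, a subunit with a bound zinc, varied more, with 57.95, 154.6 and 191.2 CPM per kb (134.6 ± 68.85, SD, n = 3), and its region lay near Mrpl36. Ndufa2, a matrix arm subunit, had 101.4, 162.3 and 59.66 CPM per kb (107.8 ± 51.63, SD, n = 3) in a region shared with Ik and Tmco6. The lowest complex I gene by symbol was Ndufa4l2, a gene known to be induced by hypoxia, at 43.15 ± 4.972 CPM per kb (SD, n = 3). Its paralogue Ndufa4, counted here by its symbol, is now known as a subunit of complex IV. Values near Ndufb4b, and the lack of a region near Ndufb4c, are uncertain, since both are close copies of Ndufb4 and how reads with several matches were treated is not given in the sources used here.

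Complex II, succinate dehydrogenase, is the smallest complex and the only one with no subunit from the mitochondrial genome. Each of its 4 genes was in the top 10% of at least 1 library, which held for 16.1% of all genes and for 30 of the 96 respiratory chain genes (31.25%), and 3 were in the top 10% by mean. Sdhc, a membrane anchor, had the highest value of all 96 genes, with 310.9, 490.9 and 310.3 CPM per kb (370.7 ± 104.1, SD, n = 3). Its region, 96 bases wide, overlapped the gene end and held 186 reads, the most of any gene's highest region in the set. Each library was far above its threshold at this region.

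Sdhd, the other membrane anchor, had 197.3, 89.47 and 99.26 CPM per kb (128.7 ± 59.65, SD, n = 3), so library 1 alone put it in the top 10%. Its region (chr9:50603822-50603943) spanned the start site and was shared with Timm8b and Nkapd1. Sdha, the flavoprotein that oxidises succinate, had 109.9, 104.6 and 121.9 CPM per kb (112.1 ± 8.885, SD, n = 3), from a region 4763 bases from the gene that was shared with Pdcd6. Sdhb, the iron-sulphur subunit, had 97.28, 63.68 and 122.8 CPM per kb (94.58 ± 29.64, SD, n = 3), just below the threshold. Its region (chr4:140961144-140961414) ran from 126 bases upstream to 143 downstream of the start site and was shared with no gene.

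Complex III passes electrons from ubiquinol to cytochrome c. A region was found near 9 of its 11 genes, with a median of 78.86 CPM per kb, and 2 were in the top 10%. Uqcrq, a small subunit on the inner membrane, had 99.03, 132.1 and 135.1 CPM per kb (122.0 ± 19.99, SD, n = 3), 235 bases from the gene in a region shared with Gdf9. Uqcc3, an assembly factor for cytochrome b, had 141.4, 100.6 and 84.29 CPM per kb (108.7 ± 29.41, SD, n = 3) in a region on the start site shared with Lbhd1. Uqcrh, the hinge protein of the complex, stood just outside the top 10% with 89.86, 123.3 and 87.82 CPM per kb (100.3 ± 19.9, SD, n = 3). The Rieske iron-sulphur protein gene Uqcrfs1 was the lowest, at 62.18, 6.634 and 55.05 CPM per kb, with almost nothing in library 2.

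Complex IV, cytochrome c oxidase, had 15 of 17 genes with a region, a median of 60.93 CPM per kb and 2 genes in the top 10%. The highest was not a ubiquitous subunit but Cox7a1, the isoform known from heart and skeletal muscle, with 117.3, 255.8 and 217.6 CPM per kb (196.9 ± 71.52, SD, n = 3). It was above the threshold in each library. Its region lay just upstream of the start site, from 128 to 12 bases before it, and was shared with Capns1. Of the 7 tissue isoforms it was the only gene in the top 10%, and 5 had a region.

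Cox7a2, the isoform of the same subunit used in most tissues, had 195.8, 40.76 and 80.71 CPM per kb (105.8 ± 80.49, SD, n = 3), carried by library 1. Its region lay 4437 bases from the nearest gene end counted here, yet it began 50 bases after an annotated start site. Cox7a2l, a paralogue that helps to join complexes III and IV into supercomplexes, had 62.54, 133.4 and 96.09 CPM per kb (97.35 ± 35.47, SD, n = 3). The lowest value of the whole set was at Cox6c, at 40.2 ± 27 CPM per kb (SD, n = 3).

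Complex V had 15 of 17 genes with a region, the lowest median of the complexes (53.32 CPM per kb, below the 58.8 of all genes) and 3 genes in the top 10%. That order depended on the region taken. For its 8 genes with a region in the promoter window the median there was 89.03 CPM per kb, against 71.49 for all genes. Only complex II, with 2 such genes, was higher, at 111.6. In the catalytic F1 head only Atp5d, the delta subunit of the rotor stalk, was in the top 10% by its highest region. It had 117.4, 133.1 and 102.4 CPM per kb (117.6 ± 15.36, SD, n = 3). Its region spanned the start site of the entry used, from 142 bases upstream to 101 downstream, and was shared with Cbarp and Midn. Atp5g1, which encodes a copy of the ring subunit c, had 177.1, 202.9 and 147.8 CPM per kb (176.0 ± 27.58, SD, n = 3) from a region (chr11:96075992-96076083) 298 bases from the gene. A separate region, from 115 to 4 bases before its start site, had 138.6, 227.4 and 94.37 CPM per kb. Atp5j, a subunit of the peripheral stalk, had 121.6, 82.55 and 160.1 CPM per kb (121.4 ± 38.8, SD, n = 3). That region lies within Atp5j, 912 bases from an end of the gene, and is also the highest region of Gabpa. The lowest complex V gene was Atp5l, a membrane subunit, at 47.45 ± 8.939 CPM per kb (SD, n = 3).

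**Figure D4:**
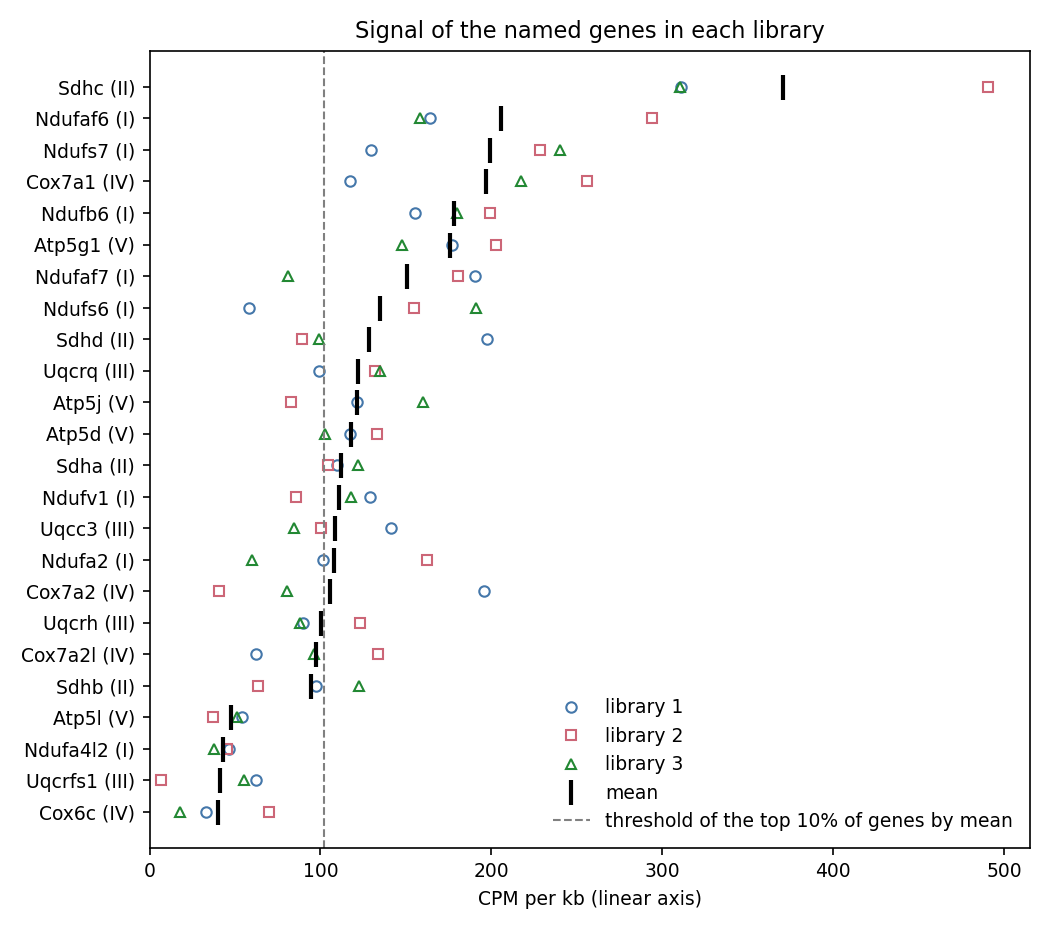
CPM per kb (linear axis from 0) of the highest region of 24 named respiratory chain genes in each of 3 libraries, with the mean as a bar and the complex in brackets; the dashed line is the threshold of the top 10% by mean. Sdhc lies above 310 in every library, while genes such as Cox7a2 and Uqcrfs1 spread widely.

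The 6 genes in the top 10% of all 3 libraries were Sdhc, Ndufaf6, Ndufs7, Cox7a1, Ndufb6 and Atp5g1. Their regions were also among the 152 highest of all 151133 regions, those at or above 170.1 CPM per kb. Most were narrow: 5 of the 18 genes in the top 10% had a highest region under 100 bases wide, and all of these 5 were among the 6, Cox7a1 being the exception. The narrowest region in the files is 90 bases, and dividing by width raises narrow regions. When reads per region were counted without dividing by width, 8 of the 18 stayed in the top 10%. The respiratory chain genes then held 13 places (13.54%, against 7.379% of all genes). Reads per highest region were few, 21 to 186 over all 6 samples, with a median of 50.5 against 38 for all genes. The spread between libraries was large: the median coefficient of variation was 36.87%, against 42.7% for all genes.

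No region was found within 5 kb of 8 genes: Ndufb5, Ndufb4c, Uqcrc2, Uqcrb, Cox6a2, Cox8c, Atp5g3 and Atp5md. Uqcrc2, a core subunit of complex III, was farthest from any region, at 27888 bases. Uqcrb, which binds ubiquinone in the same complex, missed the window narrowly, at 5012 bases. Just inside the window were the regions of Ndufs7 at 4926 bases and Atp5pb, a peripheral stalk subunit, at 4945. Cox6a2 is a muscle isoform and Cox8c a testis isoform. In such shallow tables, the lack of a region is no measure of lack of binding.

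Other genes of the pathway, a list of 51 assembly factors, electron carriers and regulators, were described in the same way. A region was found for 41 (80.39%), against 73.7% of all genes, and 9 (17.65%) were in the top 10%, against 7.37%. Taco1, a translation activator for mitochondrially encoded Cox1, had the highest value of the list, with 459.2, 465.4 and 462.0 CPM per kb (462.2 ± 3.109, SD, n = 3). Technical replicate 1 of this region read 1311 CPM per kb and technical replicate 2 read 285.4, so its even values across libraries hide a large gap within them. Esrra, the nuclear receptor that drives many respiratory chain genes, had 77.02, 246.5 and 228.6 CPM per kb (184.0 ± 93.12, SD, n = 3). Coa3, a complex IV assembly factor, had 134.0 ± 29.09 CPM per kb (SD, n = 3). The lowest of the list with a region was Cox14, another assembly factor of complex IV, at 38.67 ± 11.69 CPM per kb (SD, n = 3). Among the 10 without a region were Ppargc1a, which encodes a coactivator of mitochondrial genes, and Etfdh.

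The libraries were shallow: technical replicate 1 held 273896 to 326440 reads in regions, and technical replicate 2 held 1296355 to 1755015. At this depth the value of a single gene rests on few reads. In libraries 1 to 3, Ndufaf6 had 9, 8 and 0 reads in the shallower technical replicate and 16, 34 and 30 in the deeper. Sdhc had 6, 8 and 12 reads, and then 44, 66 and 50. With technical replicate 1 alone, 16 respiratory chain genes (16.67%) were in the top 10%, of which 9 were among the 18. With technical replicate 2 alone, 19 (19.79%) were in the top 10%, which included all 18. The share of all genes was 7.374% in either case.

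Technical replicate 2 was compared with technical replicate 1, blocking on the library, by edgeR's quasi-likelihood test. Of 196 regions near respiratory chain genes 74 were deep enough to test, and none passed an adjusted p of 0.05, against 0.259% of all 27452 regions tested. At an unadjusted p under 0.05 there were 12 of 74 (16.2%), all higher in technical replicate 2, against 6.86% of all. DESeq2 also called none, with 4 (5.41%) at an unadjusted p under 0.05, against 5.06% of all. With scaling by total reads in regions, edgeR likewise had 4 (5.41%), against 3.82% of all. In the first edgeR test the lowest adjusted p was 0.238, at the promoter region of Atp5g1 (chr11:96075634-96075746), with a log2 fold change of 2.72 (SE 0.89). It held 0, 2 and 2 reads in the first of the technical replicates and 26, 38 and 20 in the second. Atp5j followed among the highest regions, with a log2 fold change of 2.62 (SE 1.01, edgeR adjusted p = 0.396).

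Most of the 74 regions were estimated higher in technical replicate 2. Their median log2 fold change was 0.74, against 0.41 for all 27452, and 67 of 74 (90.5%) were above 0, against 66.2%. Scaling by total reads in place of TMM moved the median of all regions to 0.05, with 0.37 for the 74 and 57 of them (77%) above 0. The regions called over the whole table were 71 with TMM, 38 of them higher in technical replicate 2, and 55 with total reads, 9 of them higher there. Without the block, 46 were called, 5 of them higher in technical replicate 2. Leaving out a library gave 18 calls without library 1, 0 without library 2 and 8 without library 3.

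**Figure D5:**
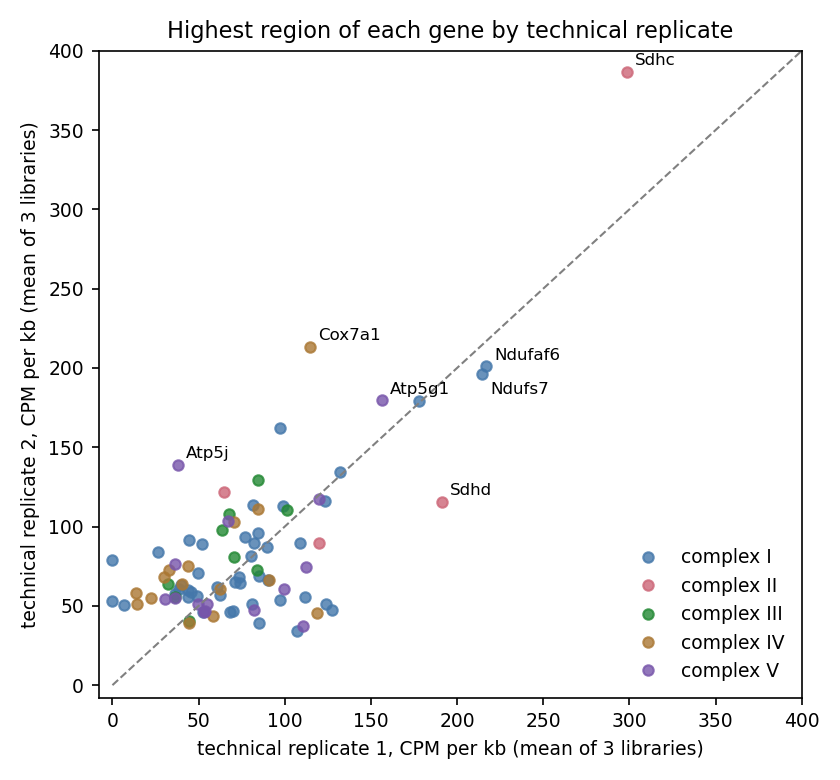
CPM per kb of the highest region of each of 88 respiratory chain genes in technical replicate 1 and technical replicate 2, each the mean of 3 libraries, coloured by complex, with a dashed line of equality. Sdhc (298.6 and 386.8) is highest in both, Atp5j (37.82 and 139.0) lies far above the line and Sdhd (191.2 and 115.7) below it.

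Between the 3 libraries, edgeR's quasi-likelihood test, adjusted for technical replicate, called 4 of 27452 regions (0.0146%), none of them near a respiratory chain gene. None of the 74 reached an unadjusted p under 0.05 either, against 4.35% of all. DESeq2 likewise called none and had none under 0.05, against 5.69% of all. With scaling by total reads in regions, edgeR had 1 (1.35%), against 4.1%. In the first edgeR test the lowest unadjusted p was at Ndufa9, with an adjusted p of 0.999986. There, libraries 1 to 3 held 10, 0 and 2 reads in the shallower technical replicate and 24, 16 and 5 in the deeper. The test covered the highest regions of 49 of the 88 genes. Those of Uqcrfs1, Cox7a2l, Uqcrh, Cox6c, Atp5l and Ndufa4l2 were too shallow to enter it.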

How the data were processed

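For 6 anti-IKZF2 CUT&RUN samples the authors deposited raw read counts per region over a shared set of 151133 regions in mm10. The submitters' processing notes list Bowtie2 2.3.3.1 and MACS2; what each was set to do, and on which samples regions were called, is not given in the sources used here. Depth was 273896 to 326440 reads in regions (technical replicate 1) and 1296355 to 1755015 (technical replicate 2). Counts of 10 or more were even in 84.65 to 87.35% and 58.02 to 61.23% of cases, so reads may not be independent and precision is lower than the counts imply. The files do not state whether starts count from 0; regions are printed as deposited, and distances and sequences took them as counting from 0.

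Groups came from the sample titles. Technical replicates were summed per library, and CPM per kb was computed with Python 3.11.15 (numpy 2.4.6, pandas 2.3.3). Gene spans and promoter entries were RefSeq's, GRCm38.p6, whose coordinates are those of mm10. Shares and medians of the gene lists are descriptions beside all genes, with no test. The 2 technical replicates of a library are paired by the series' design text, and their deviations from the group means (log2 of CPM + 0.5) correlated at 0.181 to 0.193, against -0.109 to -0.075 between libraries. Tests used edgeR 4.0.16 (R 4.3.3; filterByExpr, TMM, glmQLFit, glmQLFTest, Benjamini-Hochberg over all regions tested, adjusted p under 0.05), with DESeq2 1.42.0 as an alternative, and were tested on simulated data.

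The members and lists were chosen with earlier results of these data known. Genes were named by rule: all complex II genes, the 3 highest and the lowest of each complex, all in the top 10%, and the 3 highest and the lowest of the 51 other pathway genes; others named were chosen after their values were seen. Not every gene covered by that rule is reported here.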

Additional observations from a re-analysis of the deposited data

How the results depend on the processing

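The count of 18 genes in the top 10% stayed between 13 and 19 with regions given to the nearest gene end, reads per region, either technical replicate alone, TMM, a minimum of 10 reads, or without the top 0.1% of regions. It was 11 within 1 kb, 10 with signal summed, 4 with regions of 200 bp or wider and 6 with regions in the promoter window alone, a setting chosen after seeing the data; it was 16 to 24 when a library was left out. In each of these 15 settings, the main one included, the share was 1.413 to 3.39 times that of all genes. The count in all 3 libraries was 6 as reported, beside 301 of all genes. It was 1 with technical replicate 1 alone (38 of all genes) and 3 with regions of 200 bp or wider (141). In the promoter window it was 0 (71), and without the top 0.1% of regions it was 0 (207). That last setting leaves out the highest region of each of the 6 genes, so it is no independent check on them. No gene of the 18 stayed in the top 10% under all 13 alternatives, the promoter window aside; Atp5d, Atp5g1 and Uqcrq were among those that stayed in 11. The median of 65.95 was 78.68 with technical replicate 1 alone and 74.42 in the promoter window. For the 25 named genes, 238 of 262 values moved by less than 1 SD, which is a weak check. The SD is that of the same 3 libraries, so leaving out a library could hardly move a value that far. The minimum of 10 reads could move none, since each highest region held at least 21. Settings that left a gene without a region, and those in other units, are not among the 262. Regions called between technical replicates numbered 71, and 46 without the filter on low counts, 46 with no replicate block (9743 regions tested) and 0 to 18 with a library left out. Regions called between libraries numbered 4, and 0 without the technical replicate term. No region near a respiratory chain gene was called under any of these settings. The cause of these changes was not tested.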

Other observations

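The 3 family genes on the X chromosome stand outside the set. Cox7b had a region 4637 bases from an end, at 59 ± 26.14 CPM per kb (SD, n = 3), while Ndufb11 and Ndufa1 had none within 5 kb (nearest at 12926 and 6183 bases). Of the 19 pseudogenes with such symbols, 10 (52.63%) had a region, with a median of 51.33 CPM per kb, and the highest was Atp5l2-ps at 116.1 ± 5.272 (SD, n = 3).

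The mitochondrial genome, which encodes further subunits of complexes I, III, IV and V, held a single region (chrM:15853-16272). Its density was 3736 ± 823.6 CPM per kb (SD, n = 3), with 4543, 2897 and 3769 in libraries 1 to 3, and it held 8382 reads. This density was not set against the control antibody or adjusted for the number of copies of this genome in a cell. It therefore cannot be compared with the values of nuclear genes as a measure of binding.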
